A study of Mus musculus with 24 samples.

Results

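The comparison described here is Cop1 knockdown in wild-type mouse embryonic fibroblasts that were kept in the compound KL001 and received no Dexa. It sets 3 libraries labelled siCop1, KL001 and no Dexa against 3 labelled siCTRL, KL001 and no Dexa, chosen by those labels alone, so it uses 6 of the 24 libraries of the series. All genes of the table were taken. The other 18 libraries hold the same siRNA pair in DMSO, in DMSO with Dexa and in KL001 with Dexa, with 3 libraries in each group, and they enter below where the effect of the knockdown is set beside its effect in those settings. All 24 libraries come from wild-type cells, no library carries a deletion, and the siCTRL cells of the comparison received KL001 as well. An effect of KL001 that is equal with both siRNAs is therefore not part of the difference, while one that differs between them is. siCop1 is read as a small interfering RNA that targets Cop1 and siCTRL as its control, and the name Dexa is kept as labelled. Doses, durations, siRNA sequences and the number of independent cell preparations are not stated in the labels. The labels name no other siRNA against Cop1. Effects of siCop1 that do not pass through Cop1 therefore cannot be told apart from those of its loss, in any setting. Nothing in the labels says that replicates came from separate cultures, so the p-values measure the spread between these libraries, which may be technical.

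Cop1 is the substrate receptor of a cullin-RING ubiquitin ligase built on Cul4, Ddb1 and Det1, which marks transcription factors such as Jun and the ETS factors Etv1, Etv4 and Etv5 for the proteasome. The Tribbles proteins are adaptors that bring further substrates, C/EBPα among them, to Cop1. Cryptochromes are repressor proteins of the circadian clock, which the small molecule KL001 stabilises by keeping their F-box ligase away. By its title the series is about cryptochromes inhibiting the Cop1 ligase. The comparison asks what loss of Cop1 does to expression in cells kept in KL001, whose cryptochrome protein was not measured in these libraries. mRNA levels carry no information on the stability of the substrate proteins.

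The 6 libraries held 24244232 to 26307891 counts. Levels are given as CPM, counts scaled to a common library total, in the order of replicates 1, 2 and 3, and intervals are standard errors (SE) or, for a mean over 3 libraries, SDs. The targeted gene followed the labels. Cop1, listed under its older symbol Rfwd2, stood at 28.7, 26.2 and 28.0 CPM with siCTRL and 4.33, 5.17 and 5.79 CPM with siCop1 (log2 fold change -2.43, SE 0.07, adjusted p = 1.24e-20, edgeR's quasi-likelihood test, Benjamini-Hochberg adjusted). Every siCop1 library lay far below every siCTRL library. The fibroblast marker list summed to 52615, 49226 and 48005 CPM with siCTRL and 43681, 43554 and 42235 CPM with siCop1, with Col1a1, Col1a2, Fn1 and Vim all detected, and 5 of its 10 members fell and 2 rose. One library of these 6 stands apart. siCTRL replicate 2 held 169 CPM of 14 heart muscle markers, against 7.07 and 7.39 CPM in siCTRL replicates 1 and 3 and 2.69, 3.44 and 2.84 CPM with siCop1, and the cardiac myosin Myh6 had 592 counts there and 0 in the other 5 libraries. Over the whole series the same sum ran from 5.54 to 178 CPM in the 12 siCTRL libraries and from 2.69 to 5.09 CPM in the 12 siCop1 libraries. It was 132, 39.7 and 55.4 CPM with siCTRL in DMSO without Dexa. In siCTRL replicate 2 with Dexa it was 178 CPM in DMSO and 51.8 CPM in KL001. Agreement of muscle genes between settings carries this difference between the siRNAs, and its part was not tested. Results that move with siCTRL replicate 2 of this comparison are given with and without that library. Skeletal muscle markers summed to 5.24, 11.9 and 5.96 CPM with siCTRL and 3.24, 3.24 and 3.92 CPM with siCop1, with Myod1, Myog and Myh8 at 0 in all 6. Macrophage markers summed to 6.84, 11.4 and 7.04 CPM with siCTRL and 8.89, 14.1 and 12.4 CPM with siCop1, with Aif1 at 0, and 1 of the 5 members tested rose. Endothelial markers summed to 9.90, 10.3 and 8.94 CPM with siCTRL and 7.41, 7.14 and 7.32 CPM with siCop1, and 2 of the 6 members tested fell and 1 rose. Airway epithelial markers summed to 48.3, 75.2 and 26.3 CPM with siCTRL and 36.3, 95.1 and 58.3 CPM with siCop1, and squamous epithelial markers to 25.4, 26.4 and 20.8 and to 23.2, 27.4 and 24.3 CPM, with overlapping groups in both. Of the 7 airway members tested 1 rose, Pigr (log2 fold change 2.75), a call lost in 4 of 12 alternatives. It had 10, 19 and 5 counts with siCTRL and 20, 71 and 150 with siCop1. Of the 9 squamous members tested 1 fell, Perp, a call lost in 2 of 12 alternatives. The counts of marker members called stand beside 14.5% higher and 18.2% lower over all genes tested, at an adjusted p below 0.05. The airway share, 14.3% higher, and the squamous share, 11.1% lower, did not exceed these. In RNA from a whole culture, fewer cells of a type and less RNA per cell cannot be told apart.

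Cop1 knockdown under KL001 changed many genes by a small amount. Of 14772 genes tested, 4835 (32.7%) had an adjusted p below 0.05, which is what changed, rose and fell mean from here on. Of these, 2140 (14.5%) rose and 2695 (18.2%) fell. In 4015 of the 4835 the difference was under 1.5-fold, and 313 genes (2.12%) changed at least 2-fold, 140 up (0.948%) and 173 down (1.17%). Many of the large changes sat in weakly expressed genes. The mean of the 6 libraries was under 1 CPM for 153 of the 313, and 8 of them were at 50 CPM or more. All 3 siCop1 libraries lay above all 3 siCTRL libraries for 2639 genes (17.9% of those tested) and below them for 3201 (21.7%), and 1961 of the genes that rose and 2512 of those that fell were among these. Most changed genes thus have groups that do not overlap, and genes named below by size of change were required to. The median log2 fold change over all genes was -0.01.

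**Figure D1:**
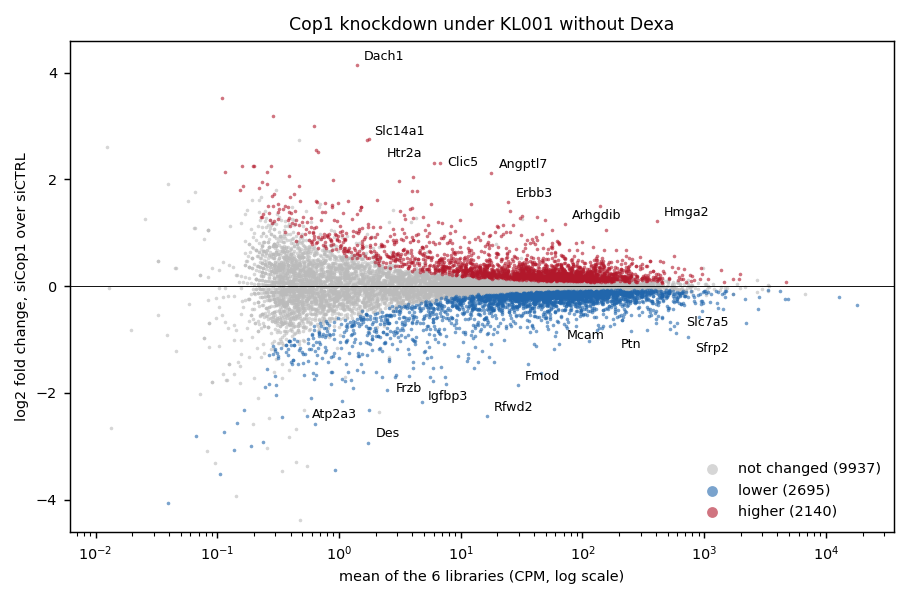
Each point is 1 of 14772 genes, with the mean of the 6 libraries in CPM on a log scale on the x axis and the log2 fold change of siCop1 over siCTRL in KL001 without Dexa on the y axis, coloured by the call. The 24 points beyond the y axis limits include 0 changed genes. Dach1 is the highest labelled point, Hmga2 stands out to the right among abundant genes, and Des, Rfwd2 and Fmod lie low.

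The genes with the largest rises were mostly low or absent in control cells. They include a transcriptional regulator, several cell-surface receptors and genes known from neurons, and among the 15 with the largest rise at a mean of 1 CPM or more, all 15 also rose in each of the other 3 settings. Of the 313 genes changed at least 2-fold, 162 changed the same way in all 4 settings. Over all 14772 genes tested, 997 rose and 1410 fell in all 4. Dach1, a corepressor of the Dachshund family, stood at 0.194, 0.164 and 0.0774 CPM with siCTRL and 3.04, 2.59 and 2.31 CPM with siCop1 (log2 fold change 4.14, SE 0.28, adjusted p = 9.36e-13 in edgeR's test). Those values rest on 5, 4 and 2 counts in the control libraries and 78, 67 and 62 in the knockdown, so the size of the ratio is set by few control reads while the groups stay far apart. Htr2a, a serotonin receptor, was at 2.29, 1.69 and 2.05 CPM with siCTRL and 10.2, 9.73 and 10.2 CPM with siCop1 (log2 fold change 2.32, SE 0.13, adjusted p = 3.20e-14). Angptl7, a secreted angiopoietin-like protein, was at 7.50, 5.63 and 6.77 CPM with siCTRL and 29.4, 28.5 and 29.0 CPM with siCop1 (log2 fold change 2.12, SE 0.10, adjusted p = 7.32e-15). For both, the lowest knockdown library was several times the highest control library. Erbb3, the neuregulin receptor that pairs with Erbb2, was at 12.5, 13.1 and 11.5 CPM with siCTRL and 38.3, 36.9 and 35.2 CPM with siCop1 (log2 fold change 1.57, SE 0.06, adjusted p = 9.88e-19), and the groups were again far apart. Slc14a1, a urea transporter, rose by a log2 of 2.74, and Clic5, of the chloride intracellular channel family, by 2.31. The tyrosine phosphatase Ptpn22 (2.05), the complement receptor C3ar1 (1.97) and Cd300lb (1.62), a myeloid cell surface receptor, rose as well. The macrophage marker sum given above ran from 8.89 to 14.1 CPM in the knockdown and from 6.84 to 11.4 CPM in the control, and its part in the last 3 was not tested. Genes known from neurons in this set were Gap43 (1.79), a growth cone protein, Nav3 (1.53), a neuron navigator, and Dlgap2 (1.49) and Frmpd4 (1.60), both of postsynaptic scaffolds. The summed neuron and glia markers were at 294, 254 and 286 CPM with siCTRL and 241, 244 and 234 CPM with siCop1, with Rbfox3 and Sox10 at 0, and 3 of the 5 members tested fell and 1, the myelin gene Mbp (0.40), rose, a call lost in 11 of 12 alternatives. The serine protease Prss22 (1.48) and Malrd1 (1.78) complete the 15.

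Among the 15 genes with the largest fall were Cop1 itself, secreted regulators of growth factor signalling and matrix proteins, and 13 of the 15 fell in all 4 settings, Des and Sema6a being the exceptions. Fmod, fibromodulin, a proteoglycan that binds collagen fibrils, stood at 47.9, 45.6 and 45.1 CPM with siCTRL and 12.5, 13.01 and 12.9 CPM with siCop1 (log2 fold change -1.85, SE 0.05, adjusted p = 2.89e-21 in edgeR's test). Igfbp3, which binds insulin-like growth factors in the medium, was at 13.01, 11.6 and 10.7 CPM with siCTRL and 2.77, 3.44 and 3.73 CPM with siCop1 (log2 fold change -1.83, SE 0.12, adjusted p = 2.77e-12). Frzb, a secreted Wnt antagonist, was at 4.19, 3.66 and 3.87 CPM with siCTRL and 0.975, 0.811 and 1.23 CPM with siCop1 (log2 fold change -1.95, SE 0.19, adjusted p = 2.02e-09). In each of these genes the 3 knockdown libraries were close together and far below the controls. The calcium pump Atp2a3 (-2.33), the TNF family ligand Tnfsf15 (-2.16) and the metabolic hormone Fgf21 (-1.91) fell by similar amounts, values in parentheses being log2 fold changes. So did the tight junction protein Cldn19 (-1.78), the germ-cell helicase Ddx4 (-1.77), the calcium-binding protein S100b (-1.74), the collagen chain Col8a2 (-1.71), the globin Cygb (-1.70) and the transmembrane semaphorin Sema6a (-1.78).

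A pair of muscle genes in this set moved with the library that stands apart. Des, the muscle intermediate filament desmin, was at 1.05, 7.11 and 1.08 CPM with siCTRL and 0.312, 0.425 and 0.448 CPM with siCop1 (log2 fold change -2.93, SE 0.86, adjusted p = 0.0133 in edgeR's test), so the control group was high in replicate 2 alone. Without that library the log2 fold change was -1.42, and the call was lost (adjusted p = 0.19 in edgeR's test). It was lost too when only the 6 libraries were fitted (adjusted p = 0.167). Cox6a2, the muscle form of a cytochrome c oxidase subunit, was at 5.90, 11.4 and 6.07 CPM with siCTRL and 1.44, 2.09 and 1.64 CPM with siCop1 (log2 fold change -2.17, SE 0.32, adjusted p = 3.37e-05). Without siCTRL replicate 2 it was still lower, at -1.79 (adjusted p = 1.32e-04). The heart marker sums beside these values are given above, and their part in both results was not tested.

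Abundant genes, with a mean of at least 50 CPM, changed by smaller factors but with little spread, and the 8 highest rises and 8 deepest falls among them went the same way, past the threshold, in all 4 settings. Hmga2, an architectural chromatin protein of growing embryonic cells, stood at 246, 236 and 251 CPM with siCTRL and 573, 569 and 558 CPM with siCop1 (log2 fold change 1.21, SE 0.03, adjusted p = 3.33e-22 in edgeR's test). Sfrp2, a secreted Wnt antagonist, was at 1003, 971 and 942 CPM with siCTRL and 508, 484 and 512 CPM with siCop1 (log2 fold change -0.95, SE 0.03, adjusted p = 5.85e-19). Slc7a5, the large neutral amino acid transporter, was at 772, 770.3 and 719 CPM with siCTRL and 412, 403 and 411 CPM with siCop1 (log2 fold change -0.88, SE 0.03, adjusted p = 9.89e-19). The groups of all 3 genes were separated by many times their spread. The other abundant genes that rose were Arhgdib (1.16), an inhibitor of small GTPase cycling, the RNA editing enzyme Adarb1 (1.05), the interleukin-33 receptor Il1rl1 (1.05), the protocadherin Pcdh19 (0.85), the matricellular thrombospondin Thbs2 (0.83), the translation repressor Eif4ebp2 (0.81) and the secretory pathway protein Tmed5 (0.80). Those that fell were Tinagl1 (-1.17), a matrix glycoprotein, the adhesion molecule Mcam (-1.08), the pentraxin Ptx3 (-1.02), Plekha1 (-0.94), the lysyl oxidase family member Loxl4 (-0.85) and the growth factor pleiotrophin, Ptn (-0.85).

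**Figure D2:**
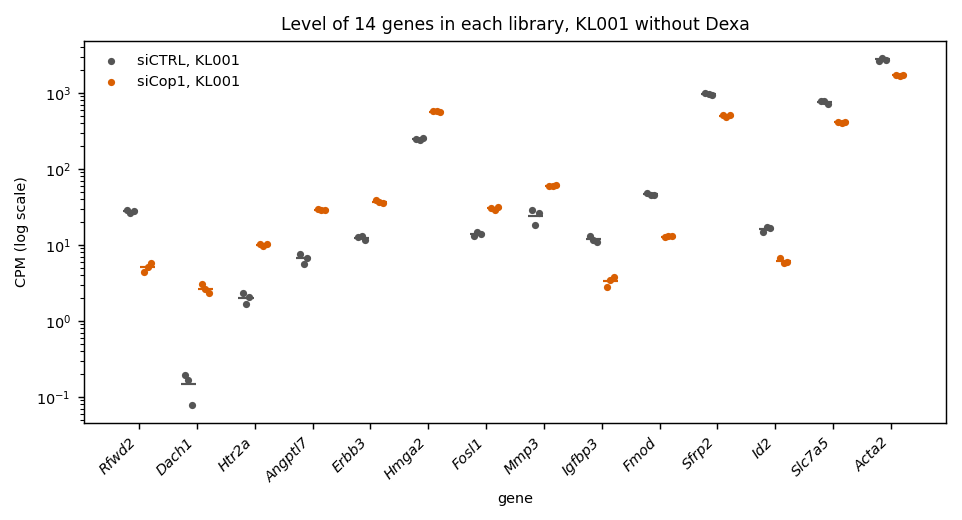
Each point is 1 library, in CPM on a log scale, for 14 genes along the x axis. Grey points are siCTRL and orange points siCop1, both in KL001 without Dexa, and the bars are the means of 3 libraries. The groups do not overlap for any of the 14 genes, with Dach1 the furthest apart and Rfwd2, the targeted gene, lower in all 3 knockdown libraries.

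The counts of gene lists from here on stand beside 14.5% higher and 18.2% lower over all genes tested. Counts of members that changed in all 4 settings stand beside 997 higher and 1410 lower of the 14772 genes tested. Among the 10 genes of the Cop1 ligase and its adaptors, 4 fell, 1 rose and 5 did not pass the test, with a list median of -0.09. Outside Cop1 the larger changes were in the adaptors Trib3 and Trib1. Trib3 was at 205, 219.9 and 210.1 CPM with siCTRL and 129, 122 and 129 CPM with siCop1 (log2 fold change -0.74, SE 0.04, adjusted p = 1.10e-15 in edgeR's test). Trib1 was at 19.5, 19.6 and 20.9 CPM with siCTRL and 26.9, 22.7 and 24.5 CPM with siCop1 (log2 fold change 0.30, SE 0.06, adjusted p = 4.41e-04). The groups did not overlap for either gene, Trib3 being lower and Trib1 higher in every knockdown library. Trib2 differed by -0.12, a call that 9 of 12 alternatives lost, and Ddb1, the linker to the cullin, by -0.10, a call lost in 2 of 12, the fits on the 6 libraries alone. The cullins Cul4a (-0.05) and Cul4b (0.01), the RING protein Rbx1 (-0.04), Det1 (-0.13) and Dda1 (-0.08) did not pass the test. The transcripts of 12 proteins described as Cop1 substrates split in direction, with 2 higher, 5 lower and 5 that did not pass, and a median of -0.08. Jun was at 87.5, 85.9 and 87.6 CPM with siCTRL and 119, 115 and 117 CPM with siCop1 (log2 fold change 0.43, SE 0.04, adjusted p = 2.16e-10). Etv5 was at 25.8, 24.3 and 25.3 CPM with siCTRL and 14.4, 15.8 and 14.9 CPM with siCop1 (log2 fold change -0.74, SE 0.06, adjusted p = 1.27e-11). Jun and Etv5 thus moved in opposite directions, each with groups that did not overlap. The forkhead factor Foxo1 (0.35) rose, and Cebpa (-0.49), Etv4 (-0.33) and Ets1 (-0.32) fell. Mta1, a chromatin remodelling subunit, differed by -0.11, lost in 4 of 12 alternatives. Etv1 (-0.24), Trp53 (-0.05) and Crtc2 (0.07) did not pass the test.

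Of 13 AP-1 family genes, whose products pair as Jun and Fos type subunits, 3 rose, 5 fell and 5 did not pass, with a median of -0.17. Fosl1, which encodes Fra-1, stood at 13.1, 14.7 and 13.8 CPM with siCTRL and 30.9, 29.0 and 31.7 CPM with siCop1 (log2 fold change 1.14, SE 0.06, adjusted p = 7.69e-15 in edgeR's test). Fosb was at 5.01, 4.65 and 3.52 CPM with siCTRL and 6.47, 7.68 and 6.46 CPM with siCop1 (log2 fold change 0.65, SE 0.11, adjusted p = 2.01e-05). Along with Jun, these rose in all 4 settings. Atf3 (-0.60), Junb (-0.35) and Jund (-0.35) fell in all 4, while Jdp2 (-0.23) and the small Maf gene Mafk (-0.17) fell here, the latter call being lost in 3 of 12 alternatives. Fos itself, at -0.34, did not pass the test. Genes that extracellular signal-regulated kinase switches on, most of them feedback inhibitors of the same kinase pathway, moved in both directions, with 10 of 25 higher and 7 lower (median 0.10). Dusp6, a phosphatase for this kinase, was at 31.6, 28.9 and 28.4 CPM with siCTRL and 50.7, 51.4 and 51.4 CPM with siCop1 (log2 fold change 0.79, SE 0.04, adjusted p = 2.78e-14). Spry4, a Sprouty inhibitor of receptor signalling, was at 17.9, 17.7 and 15.4 CPM with siCTRL and 11.7, 10.3 and 9.07 CPM with siCop1 (log2 fold change -0.71, SE 0.08, adjusted p = 2.94e-08). The pair shows the split, with every knockdown library above the controls for Dusp6 and below them for Spry4. Errfi1, an inhibitor of the EGF receptor, rose by 0.83, with Dusp4 (0.58), Phlda1 (0.58), Spry2 (0.34) and Myc (0.28) also higher. The phosphatase Dusp8 (-0.70), Spry1 (-0.38) and the cyclin Ccnd1 (-0.29) fell. Egr2 was called lower at -0.52, a call that 11 of 12 alternatives lost. Egr1 (-0.05) did not pass. Of 9 EGF family ligands and receptors, 3 rose and 1 fell. Beside Erbb3, described above, the ligands Hbegf (0.69) and Ereg (0.49) rose and Tgfa (-0.70) fell, each in all 4 settings, and Egfr (-0.04), Erbb2 (-0.06) and Nrg1 (0.10) did not pass.

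Matrix proteases and the plasminogen system changed in both directions, more often upward. Of 24 members tested, 10 rose (41.7%, against 14.5% over all genes) and 6 fell (25%, against 18.2%). The other 8 did not pass, and the list median was 0.14. Matrix metalloproteinases cleave matrix proteins, and the urokinase receptor Plaur gathers plasminogen activation at the cell surface. Mmp3, stromelysin-1, stood at 28.6, 18.1 and 26.0 CPM with siCTRL and 59.1, 59.5 and 61.2 CPM with siCop1 (log2 fold change 1.30, SE 0.09, adjusted p = 1.26e-10 in edgeR's test). Mmp9, a gelatinase, was at 1.24, 0.740 and 0.967 CPM with siCTRL and 2.34, 1.81 and 2.17 CPM with siCop1 (log2 fold change 1.09, SE 0.25, adjusted p = 0.00113). Plaur was at 19.8, 20.7 and 20.2 CPM with siCTRL and 29.4, 28.3 and 26.96 CPM with siCop1 (log2 fold change 0.48, SE 0.06, adjusted p = 2.11e-07). The groups did not overlap in any of the 3, and Mmp9 was low in all libraries. The membrane-bound Mmp14 (0.34) and the plasminogen activators Plat (0.32) and Plau (0.21) rose too. Among the inhibitors, Serpine2 (-0.75) and Timp3 (-0.70) fell, while Timp1 (-0.09) did not pass. Serpinb2, another plasminogen activator inhibitor, was called lower at -3.45, with 91, 1 and 40 counts in the controls and 6, 3 and 3 in the knockdown. The groups overlap, since control replicate 2 had the fewest counts of all 6, and without control replicate 1 the value was -2.36.

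AP-1 binds the sequence TGANTCA, which reads the same way on both strands. The 300 bases around the start of 3 genes that rose and hold it are shown, 250 before and 50 after the start, 5′ to 3′ on the gene's strand, from RefSeq on GRCm38.p6, with each match in capitals. C3ar1 was the only gene with a match among the 16 of 23 named genes that rose and have an entry, and Mmp3 and Plaur were picked once values were known. The windows are chr9:7445572-7445871 on the + strand for Mmp3, chr6:122856108-122856407 on the - strand for C3ar1 and chr7:24462233-24462532 on the + strand for Plaur. They hold the gene start and the first transcribed bases.
Mmp3: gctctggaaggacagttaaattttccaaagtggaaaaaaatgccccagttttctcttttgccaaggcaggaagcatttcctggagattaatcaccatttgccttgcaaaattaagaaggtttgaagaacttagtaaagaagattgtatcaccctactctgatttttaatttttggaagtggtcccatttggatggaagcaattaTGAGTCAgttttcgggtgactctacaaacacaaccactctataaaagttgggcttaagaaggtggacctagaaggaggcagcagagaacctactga
C3ar1: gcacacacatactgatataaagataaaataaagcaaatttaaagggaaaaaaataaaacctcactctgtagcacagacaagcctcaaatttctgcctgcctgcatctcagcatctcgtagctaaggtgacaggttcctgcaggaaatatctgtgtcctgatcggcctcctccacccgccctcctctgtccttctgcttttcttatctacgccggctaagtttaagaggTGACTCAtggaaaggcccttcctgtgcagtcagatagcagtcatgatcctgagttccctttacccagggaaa
Plaur: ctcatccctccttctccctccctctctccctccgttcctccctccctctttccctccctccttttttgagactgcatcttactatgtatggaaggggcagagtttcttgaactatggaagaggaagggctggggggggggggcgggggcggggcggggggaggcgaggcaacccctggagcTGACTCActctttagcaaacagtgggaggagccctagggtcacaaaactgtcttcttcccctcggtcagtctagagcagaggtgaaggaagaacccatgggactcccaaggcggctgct
Over all 32851 promoters of the table, 2565 (7.81%) hold this motif in a window of the same length. That share is per promoter, while genes were counted for a match in any of their promoters. Too few of the genes that rose have an entry for a share of the set to be given, 16 of 23 (69.6%) of those named and 5 of 10 of the proteases. A match is a sequence of letters and was not tested for binding.

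Structural matrix genes fell more often than they rose. The elastic fibre list, with the elastin core, its fibrillin and microfibril scaffold and the lysyl oxidases that crosslink it, had 12 of 21 members lower, 3 higher and 6 that did not pass, against 18.2% lower and 14.5% higher over all genes (list median -0.14). Eln, elastin, stood at 15.7, 16.6 and 15.97 CPM with siCTRL and 7.25, 5.87 and 6.91 CPM with siCop1 (log2 fold change -1.27, SE 0.10, adjusted p = 5.10e-11 in edgeR's test). Mfap4, a microfibril-associated protein, was at 4.27, 4.52 and 4.53 CPM with siCTRL and 1.44, 1.04 and 1.72 CPM with siCop1 (log2 fold change -1.66, SE 0.17, adjusted p = 9.85e-09). Loxl2, a lysyl oxidase, was at 2.06, 1.23 and 1.82 CPM with siCTRL and 0.858, 0.772 and 0.523 CPM with siCop1 (log2 fold change -1.25, SE 0.25, adjusted p = 2.39e-04). Each of these was lower in every knockdown library than in any control. Mfap2 (-0.84), Fbln5 (-0.55), Efemp2 (-0.32) and Fbn1 (-0.32) fell as well. The members that rose were Fbln2 (0.31), Lox (0.22) and Fbn2 (0.20), so the founding lysyl oxidase and its relatives Loxl2 and Loxl4 moved in opposite directions. The Fbn2 call was lost in 7 of 12 alternatives. Of the list, 11 members fell and 2 rose in all 4 settings. Of 34 collagen chains, 14 fell, 2 rose and 18 did not pass (median -0.11), and 11 fell in all 4 settings. The Col5a2, Col4a1 and Col6a2 calls were lost in 10, 9 and 5 of 12 alternatives, Col4a1 being among the 11. Col1a1, the main chain of type I collagen, was at 21403, 20509 and 18642 CPM with siCTRL and 16304, 15669 and 15356 CPM with siCop1 (log2 fold change -0.36, SE 0.04, adjusted p = 1.58e-06). Its partner Col1a2 fell by 0.20 on the log2 scale, and Col3a1, at -0.09, did not pass. Deeper falls were in minor chains, Col8a2 (-1.71), Col14a1 (-1.45), Col2a1 (-1.20), Col27a1 (-0.64) and Col11a1 (-0.54), and Col6a3 (0.22) and Col8a1 (0.24) rose. Of 13 ADAMTS proteases, which trim procollagens and proteoglycans, 7 fell and 2 rose (median -0.27). Adamts20 (-1.04), Adamts9 (-0.62), Adamts16 (-0.55) and Adamts14 (-0.55) fell the most, and Adamts7 (0.72) and Adamts4 (0.25) rose. The Adamts16 call was lost without siCop1 replicate 3 or siCTRL replicate 2. Integrins, the receptors for matrix, showed no common direction, with 5 of 17 higher and 4 lower (median 0.00). Itgb8 (1.29) and Itga7 (1.01) rose and the collagen-binding subunits Itga1 (-0.89) and Itga11 (-0.34) and Itga4 (-0.78) fell, while Itgb1 (-0.03), Itgav (0.10) and Itga5 (0.00) did not pass.

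Contractile genes of smooth muscle and myofibroblasts, which serum response factor and its coactivators control, fell in 12 of 20 members (60%, against 18.2% over all genes). Another 1 rose and 7 did not pass, with a list median of -0.28, and 10 fell in all 4 settings. Acta2, smooth muscle actin, stood at 2656, 2861 and 2728 CPM with siCTRL and 1692, 1676 and 1721 CPM with siCop1 (log2 fold change -0.70, SE 0.03, adjusted p = 2.65e-18 in edgeR's test). Tagln, transgelin, was at 667, 735 and 703 CPM with siCTRL and 418, 410.3 and 433 CPM with siCop1 (log2 fold change -0.74, SE 0.03, adjusted p = 2.62e-16). Cnn1, calponin, was at 164, 182 and 161 CPM with siCTRL and 95.5, 95.5 and 94.9 CPM with siCop1 (log2 fold change -0.83, SE 0.04, adjusted p = 8.56e-16). The groups did not overlap in any of the 3. Actg2 (-1.08), Myl9 (-0.43), Lmod1 (-0.40), Cnn2 (-0.34) and Tpm1 (-0.20) fell too, and so did Des, whose call depends on siCTRL replicate 2. Srf itself differed by -0.16, a call lost in 1 of 12 alternatives, and its coactivator genes were Mkl2 (0.22), which rose, and Mkl1 (0.02), which did not pass. Myh9 (-0.14), Flna (-0.12) and Vcl (-0.10) did not pass. The heart and skeletal marker sums, both highest in siCTRL replicate 2, are given above, and without that library Acta2, Tagln and Cnn1 stood at -0.67, -0.70 and -0.77. Of 13 YAP target and CCN genes, 6 fell and 2 rose (median -0.08), with Amotl2 (-0.41), Nov (-0.27) and Cyr61 (-0.21) lower and Tead4 (0.27) and Wisp1 (0.17) higher, while Ctgf (0.06) and Ankrd1 (-0.08) did not pass.

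Genes of secreted growth factor systems changed on several levels. In the bone morphogenetic protein (BMP) and activin list, 8 of 25 members rose and 11 fell (median -0.13). On the ligand side, Gdf5 (1.37) and Gdf6 (0.65) and Inhba (0.62), the activin A subunit, rose, and Bmp4 (-0.30) fell. Grem1, a secreted BMP antagonist, stood at 149, 132 and 151 CPM with siCTRL and 232, 229 and 227 CPM with siCop1 (log2 fold change 0.67, SE 0.04, adjusted p = 3.97e-13 in edgeR's test). The activin antagonist Fst (0.28) rose and its relative Fstl3 (-0.40) fell. Of the 4 Id genes, direct BMP targets that hold back helix-loop-helix factors, 3 fell. Id2 was at 14.7, 17.1 and 16.9 CPM with siCTRL and 6.79, 5.75 and 5.90 CPM with siCop1 (log2 fold change -1.40, SE 0.09, adjusted p = 4.93e-13), and Id1 was at 47.1, 56.7 and 57.0 CPM with siCTRL and 30.8, 26.5 and 32.9 CPM with siCop1 (log2 fold change -0.83, SE 0.08, adjusted p = 1.59e-08). The groups did not overlap in either. Id3 (-0.58) and the inhibitory Smads Smad6 (-0.38) and Smad7 (-0.27) fell as well, and Id4, at -0.31, did not pass. The Smad7 call was lost in 4 of 12 alternatives. Secreted Wnt modulators had 6 of 24 members higher and 10 lower (median -0.25). Among the secreted Frizzled-related antagonists, Frzb (-1.95), Sfrp1 (-1.04) and Sfrp2 (-0.95) fell. Dkk2, a modulator that binds the Wnt coreceptor, was at 29.4, 26.6 and 32.3 CPM with siCTRL and 70.4, 68.9 and 70.3 CPM with siCop1 (log2 fold change 1.24, SE 0.06, adjusted p = 2.62e-16), above the controls in every library, and its relative Dkk3 (-0.81) fell. The R-spondins, which amplify Wnt signals, split, with Rspo1 (0.74) higher and Rspo3 (-0.79) and Rspo2 (-0.47) lower, and the ligand Wnt4 (-1.28) fell. Of genes that Wnt signalling controls, Apcdd1 (0.69), Lef1 (0.65) and Tcf7 (0.27) rose, Notum (-0.54) fell, and Axin2 (-0.03) did not pass. The Lef1 call was lost in 6 of 12 alternatives, that of Sfrp1 in 2, without siCop1 replicate 2 or 3, and that of Notum in 1, without siCTRL replicate 2. The insulin-like growth factor list, which includes the Hmga and imprinted growth genes, had 5 of 20 members higher and 8 lower (median -0.16). Of its binding proteins, Igfbp3 (-1.83), Igfbp4 (-0.69), Igfbp7 (-0.56) and Igfbp5 (-0.24) fell, the last call being lost in 4 of 12 alternatives. Pappa, the protease that cleaves Igfbp4, was at 57.2, 45.8 and 53.6 CPM with siCTRL and 19.7, 18.7 and 18.6 CPM with siCop1 (log2 fold change -1.46, SE 0.09, adjusted p = 5.88e-11), and every knockdown library was lower. The imprinted RNA H19 (-1.12) fell, and Igf2 at -1.07 did not pass. Beside Hmga2, its relative Hmga1 rose by 1.02 and Stc2, an inhibitor of Pappa, by 0.87, while Igf2bp1 (0.06) and Igf2bp3 (-0.07) did not pass.

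**Figure D3:**
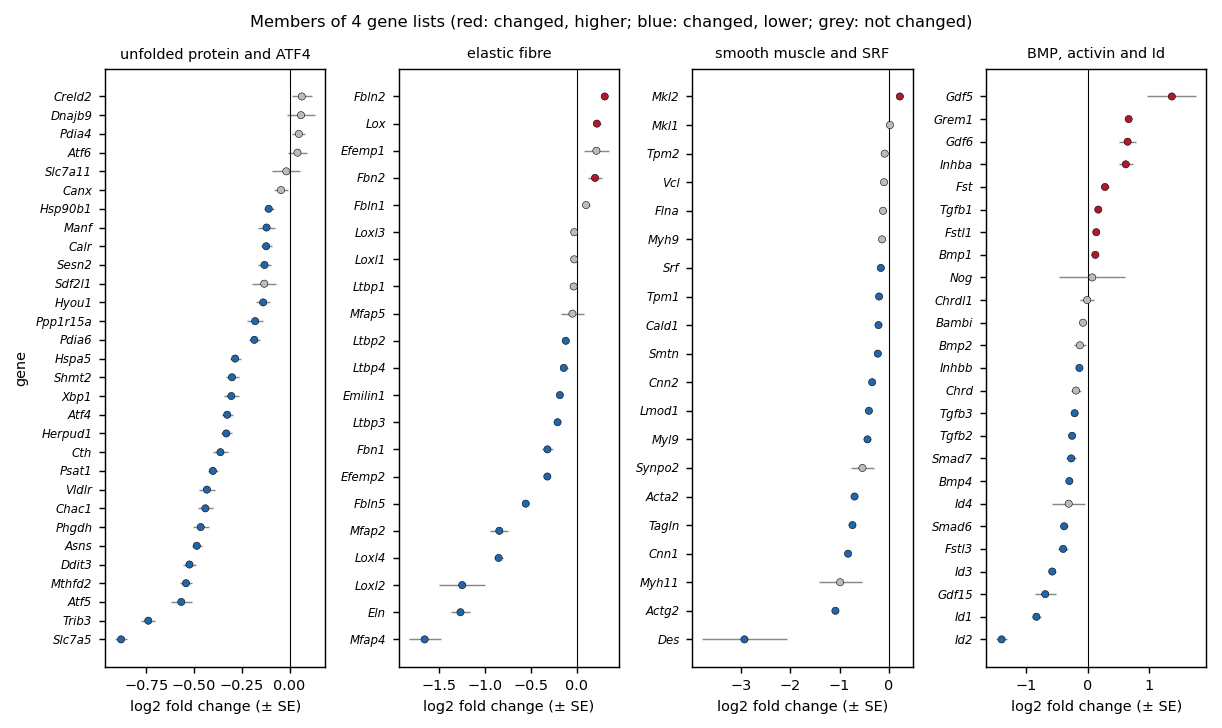
Log2 fold changes of siCop1 over siCTRL in KL001 without Dexa on the x axis, with bars of 1 SE, for each tested member of 4 gene lists (30, 21, 20 and 25 genes). Red points changed upward, blue points changed downward and grey points did not pass the threshold, and 23 of 30 members of the unfolded protein and ATF4 list are blue and 0 are red. Des has the widest bar among the blue smooth muscle genes.

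Of the lists described, the most one-sided change was in that of the unfolded protein response and ATF4. ATF4 is the transcription factor made when translation is slowed by stress, and its targets include amino acid transporters and enzymes of serine, asparagine and one-carbon metabolism. Of 30 members, 23 fell, 0 rose and 7 did not pass (median -0.29), against 18.2% lower over all genes, and 20 fell in all 4 settings. For each of the 23 the groups did not overlap, as for 2512 of the 2695 genes that fell among all genes tested. Atf4 itself was at 695, 742 and 729 CPM with siCTRL and 573, 579 and 575 CPM with siCop1 (log2 fold change -0.33, SE 0.03, adjusted p = 2.49e-10 in edgeR's test). Asns, asparagine synthetase, was at 409.5, 419.6 and 417 CPM with siCTRL and 297, 295 and 298 CPM with siCop1 (log2 fold change -0.49, SE 0.03, adjusted p = 4.00e-15). Ddit3, which encodes CHOP, was at 115, 123 and 118 CPM with siCTRL and 82.7, 80.4 and 84.5 CPM with siCop1 (log2 fold change -0.52, SE 0.04, adjusted p = 1.52e-12). All 3 knockdown libraries lay under all controls for each. Enzymes of serine synthesis and one-carbon metabolism fell by similar amounts, Phgdh (-0.47), Psat1 (-0.40), Mthfd2 (-0.54) and Shmt2 (-0.30). The ATF4-related factor Atf5 (-0.57), the glutathione-degrading enzyme Chac1 (-0.44) and the transporter Slc7a5 fell too, while Slc7a11 (-0.02), the cystine transporter, did not pass. On the chaperone side the falls were smaller, Hspa5 (-0.29), Pdia6 (-0.18), Calr (-0.12) and Hsp90b1 (-0.11), and Canx (-0.05), Pdia4 (0.05) and Dnajb9 (0.06) did not pass. The Hsp90b1 and Calr calls were lost in 2 and 1 of 12 alternatives, all fits on the 6 libraries alone. Xbp1, spliced by the stress sensor Ire1, fell by 0.31 on the log2 scale. Summed over the list, the level was 9957 ± 119 CPM (SD, n = 3) with siCTRL and 8131 ± 28.8 CPM with siCop1, with every knockdown library below every control.

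ATF4 with C/EBP partners binds the composite element TGATGNAA. The 300-base windows of 2 of the genes that fell and hold it on either strand are shown, from RefSeq on GRCm38.p6, 5′ to 3′ on the gene's strand with the match in capitals, which in Chac1 is the element on the other strand. Asns and Chac1 are 2 of 5 such genes among 19 with an entry, with Herpud1, Trib3 and Vldlr, and the set, the motif and the genes were chosen after values were seen. The windows are chr6:7693160-7693459 on the - strand and chr2:119350992-119351291 on the + strand, across the gene starts.
Asns: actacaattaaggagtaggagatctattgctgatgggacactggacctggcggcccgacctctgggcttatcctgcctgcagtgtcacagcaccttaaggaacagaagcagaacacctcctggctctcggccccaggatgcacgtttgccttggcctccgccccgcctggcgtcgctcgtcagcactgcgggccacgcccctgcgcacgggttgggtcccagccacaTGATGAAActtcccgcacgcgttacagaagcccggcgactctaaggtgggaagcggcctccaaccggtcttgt
Chac1: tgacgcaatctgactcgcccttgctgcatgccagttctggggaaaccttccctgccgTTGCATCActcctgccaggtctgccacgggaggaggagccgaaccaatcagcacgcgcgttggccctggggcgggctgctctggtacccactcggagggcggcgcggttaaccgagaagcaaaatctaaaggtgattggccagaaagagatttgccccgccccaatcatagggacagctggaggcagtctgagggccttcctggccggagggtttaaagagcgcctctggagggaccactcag
Over all 32851 promoters, 1304 (3.97%) hold this element on either strand in a window of that length. That share is per promoter, while the 5 of 19 are genes with a match in any of their promoters. Binding was not tested.

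Clock transcripts changed little. Of 25 members tested, 2 rose, 4 fell and 19 did not pass (median -0.04), beside 32.7% changed over all genes, and 2 members fell when siCop1 replicate 1 was left out. Cry1, whose protein KL001 stabilises, stood at 5.90, 5.10 and 6.42 CPM with siCTRL and 4.72, 4.44 and 4.55 CPM with siCop1 (log2 fold change -0.35, SE 0.09, adjusted p = 0.00401 in edgeR's test). The call was lost in 2 of 12 alternatives, without siCTRL replicate 3 and with a block in the 6-library fit. Ciart, a repressor of the clock, was at 7.46, 8.88 and 6.498 CPM with siCTRL and 5.23, 4.75 and 5.26 CPM with siCop1 (log2 fold change -0.58, SE 0.11, adjusted p = 1.24e-04), and its groups did not overlap. Nfil3 (-0.14) and Bhlhe40 (-0.13) fell slightly and the casein kinases Csnk1e (0.18) and Csnk1d (0.13) rose slightly, those of the kinases in all 4 settings. The Bhlhe40 call was lost in 8 of 12 alternatives, that of Nfil3 in 5 and that of Csnk1d in 1. Per1 (-0.01), Per2 (-0.20) and Per3 (0.06), Arntl (-0.14) and Clock (0.10), Nr1d1 (0.05) and Dbp (-0.14) and Cry2 (-0.06) did not pass. In DMSO without Dexa, 3 members rose and 9 fell, and for 0 members did the effect of siCop1 differ between DMSO and KL001 past the threshold in edgeR's test. DESeq2 called 1, Tef, a clock output factor, at -0.05 in KL001 and -0.24 in DMSO (adjusted p = 0.0134, against 0.106 in edgeR's test).

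Metabolic lists were mixed. Of 26 sterol synthesis genes 8 rose and 5 fell (median 0.06), with Idi1 (0.51) and Hmgcs1 (0.23) higher and Insig1 (-0.45) and Dhcr7 (-0.34) lower. Of 14 fatty acid synthesis genes 3 rose, Fasn (0.35), Elovl6 (0.28) and Acaca (0.22), and 7 fell, among them Fads1 (-0.29) and Acly (-0.28). Of 30 hypoxia and glycolysis genes 4 rose and 10 fell (median -0.04). Pfkp, the platelet form of phosphofructokinase, was at 30.7, 29.9 and 30.4 CPM with siCTRL and 14.3, 14.98 and 15.9 CPM with siCop1 (log2 fold change -1.01, SE 0.07, adjusted p = 1.27e-12 in edgeR's test), and hexokinase 2, Hk2 (0.41), rose. Of 14 NRF2 targets 3 rose and 6 fell, with Hmox1 (-0.43) and Nqo1 (-0.39) lower and Gsta4 (0.48) higher. In the p53 target list 4 of 25 members rose and 11 fell (median -0.09). Cdkn1a, the cyclin kinase inhibitor p21, was at 67.7, 72.5 and 67.0 CPM with siCTRL and 47.6, 48.0 and 52.5 CPM with siCop1 (log2 fold change -0.48, SE 0.04, adjusted p = 2.71e-10), lower in every knockdown library. Btg2 (-0.34) fell as well. The cyclin D list had 2 of 12 higher and 4 lower, with Ccnd2 (-0.32) and Ccnd1 (-0.29) lower and Cdkn2a (0.16) higher, a call lost in 5 of 12 alternatives.

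Inflammatory and differentiation lists showed few large changes. Of 23 interferon-stimulated genes 5 rose and 2 fell (median 0.02), with Ifit3 (0.61) higher and Cxcl10 (-0.67) lower, and 0 of them changed the same way in all 4 settings. The Cxcl10 call was lost in 7 of 12 alternatives. Ifit3 has close copies and reads could be shared between them. Of 27 cytokine and NF-kB genes 7 rose, among them Nfkbiz (0.48), Cx3cl1 (0.47) and Ptgs2 (0.38), and 5 fell, with Cxcl14 called at -1.13, lost in 6 of the 10 alternatives that tested it. Of 20 glucocorticoid response genes 5 rose and 3 fell in these cells without Dexa (median -0.02). Errfi1 (0.83), Glul (0.58) and Fkbp5 (0.41) rose and Klf15 (-0.85) fell. Lcn2 was called higher at 1.55, a call that 7 of 12 alternatives lost. Of 13 C/EBP and fat cell genes 3 rose and 5 fell, with Klf5 (0.73) higher and Lpl (-0.87), Cebpa (-0.49) and Pparg (-0.38) lower. In the retinoic acid list 2 of 12 rose, Crabp1 (0.33) and Rdh10 (0.25), and 5 fell, led by Cyp26b1 (-1.34), the enzyme that degrades retinoic acid. Notch pathway genes had 2 of 12 higher and 4 lower, with Nrarp (-1.17), Notch3 (-0.61) and Jag1 (-0.35) lower. Semaphorins, plexins and ephrins had 9 of 42 higher and 9 lower (median 0.01), with Plxna2 (0.98) and Sema5a (0.46) higher and Plxnc1 (-0.62) and Epha4 (-0.39) lower beside Sema6a. The Epha4 call was lost in 10 of 12 alternatives.

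**Figure D4:**
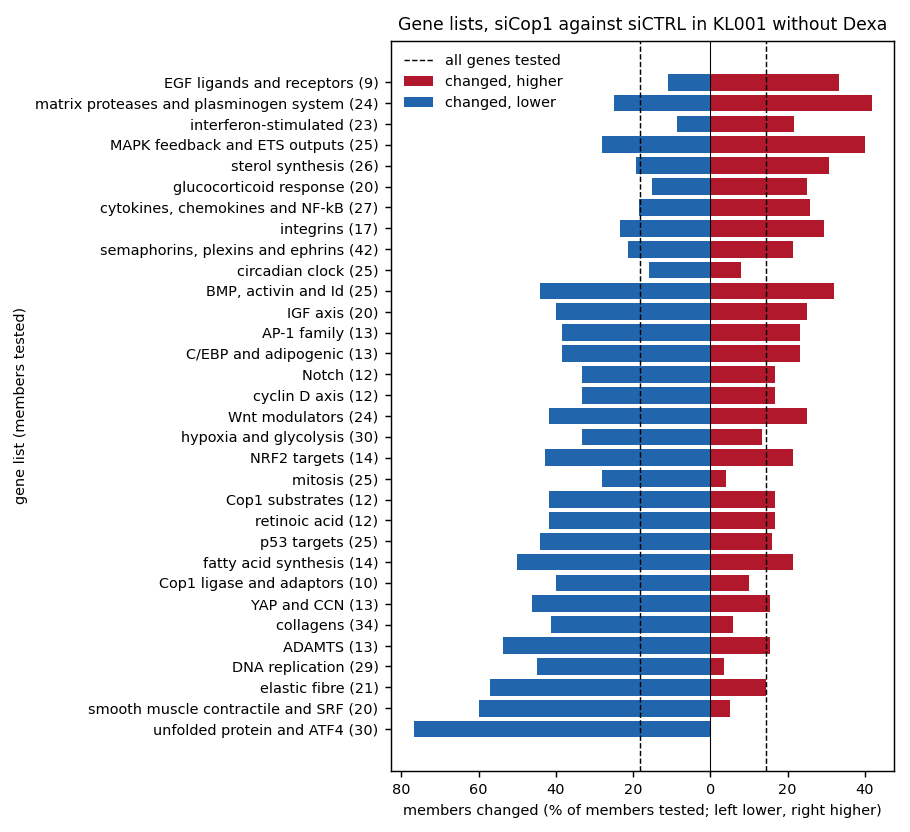
Share of the tested members of each gene list that changed with siCop1 in KL001 without Dexa, in percent, lower to the left in blue and higher to the right in red, with the number tested in parentheses. Dashed lines mark the shares over all 14772 genes, 18.2% lower and 14.5% higher, and the unfolded protein and ATF4 list has the longest blue bar, 23 of 30.

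The same knockdown without KL001 changed largely the same genes. The 2 comparisons share no library. In DMSO without Dexa 4342 genes changed (29.4%), and 3258 changed in both, 3255 of them in the same direction. That is 67.4% of the genes changed in KL001 and 75.0% of those changed in DMSO. Of the 313 genes changed at least 2-fold in KL001, 217 changed the same way in DMSO. With Dexa, 4599 genes changed in DMSO (31.1%) and 4441 in KL001 (30.1%), and 3324 and 3274 of them changed as they did in KL001 without Dexa. Altogether 2407 genes changed in 1 direction in all 4 settings, 997 higher and 1410 lower, and 686 changed in this setting alone. A gene called in 1 setting and not in another is not shown to differ between them. Of the 1577 genes changed in KL001 and not in DMSO, 1440 had the same sign in both. The difference itself, a siCop1 by KL001 interaction without Dexa, passed the threshold for 0 genes (0%) in edgeR's quasi-likelihood test, with 982 at an unadjusted p below 0.05. DESeq2 called 15 genes, and edgeR without the filter on low counts called 61. Of the 61, 59 had also been tested with the filter. They include Actc1 (adjusted p = 5.51e-12 in edgeR's test, 0.922 with the filter), which had 0, 682 and 1 counts with siCTRL in KL001. A call by the fit without the filter can therefore rest on a single library. The smallest adjusted p, 0.0608, was shared by 5 genes that include Hmga2 and Mmp3. Hmga2 was 1.21 in KL001 and 1.44 in DMSO, with means of 204 ± 1.77 and 555 ± 8.35 CPM (SD, n = 3) in the DMSO groups. Mmp3 was 1.30 in KL001 and 1.98 in DMSO, and Dkk2 was 1.24 and 0.86. These 3 differences did not pass in edgeR's test. DESeq2 called all 3, with adjusted p = 2.94e-04 for Mmp3, 8.61e-04 for Hmga2 and 0.0134 for Dkk2, and so did edgeR without the filter. The genes DESeq2 called also include elastin, Eln, at -1.27 in KL001 and -0.64 in DMSO (edgeR adjusted p = 0.106, DESeq2 adjusted p = 0.0218).

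DNA replication genes, the helicase subunits, clamp and polymerases that copy chromosomes, leaned lower with siCop1 in KL001 but not in DMSO, with no single gene whose difference between the settings passed the threshold in edgeR's test. Without Dexa, 13 of 29 members fell in KL001 and 1, Rrm2, rose (median -0.12). With Dexa, 12 fell in KL001 and 1 rose. In DMSO, 1 fell and 7 rose without Dexa (median 0.04), and 3 fell and 8 rose with it. With the replicate block in a fit of the 6 libraries alone, 5 members fell. Mcm5, a helicase subunit, stood at 107, 114 and 103 CPM with siCTRL and 86.5, 85.5 and 86.6 CPM with siCop1 (log2 fold change -0.32, SE 0.04, adjusted p = 4.14e-07 in edgeR's test), with no overlap. In DMSO the means were 92.0 ± 1.04 and 86.2 ± 2.34 CPM (SD, n = 3). Mcm6 was at 103 ± 1.73 and 89.0 ± 1.8 CPM in KL001 and at 89.9 ± 3.17 and 87.1 ± 1.07 CPM in DMSO. In both genes the control cells in KL001 had the highest mean of these 4 groups, and the knockdown cells in KL001 were close to those in DMSO. Summed over the list, the level without Dexa was 1627 ± 16.7 CPM with siCTRL and 1473 ± 12.9 CPM with siCop1 in KL001, and 1451 ± 6.48 and 1461 ± 26.9 CPM in DMSO. With Dexa it was 1654 ± 54.4 and 1489 ± 11.9 CPM in KL001 and 1453 ± 15.7 and 1436 ± 4.90 CPM in DMSO. Of the siCop1 by KL001 terms of these genes, 28 of 29 were below 0, against 7174 of 14772 (48.6%) over all genes. Their median was -0.16, and none passed the threshold singly, the smallest adjusted p being 0.106 in edgeR's test. DESeq2 called 1 of them, Rrm2, at 0.15 in KL001 and 0.39 in DMSO (adjusted p = 0.0492). Mitosis genes leaned the same way, with 7 of 25 lower (28%, against 18.2% over all genes) and 1 higher (4%, against 14.5%) in KL001. The share of the mitosis list that changed, 32%, was close to the 32.7% over all genes, so only its direction stood out. With Dexa in KL001, 9 were lower and 0 higher. In DMSO the lower and higher counts were 1 and 3, and 3 and 4 once Dexa was added. Plk1, a mitotic kinase, was at 57.2, 60.4 and 57.5 CPM with siCTRL and 48.4, 48.8 and 49.1 CPM with siCop1 (log2 fold change -0.26, SE 0.04, adjusted p = 3.03e-05). Of their siCop1 by KL001 terms 23 of 25 were below 0, with a median of -0.10. In a fit on the 6 libraries alone 3 members fell, 1 with the replicate block added, and 4 fell when siCop1 replicate 2 was left out. The list was singled out after these values were seen, and its members rise and fall together with cell division, so they are not independent of each other.

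Adding Dexa to the KL001 cells altered the effect of Cop1 knockdown for few genes. The siCop1 by Dexa interaction in KL001 passed the threshold for 83 genes (0.562%), 39 with a higher term (0.264%) and 44 with a lower one (0.298%), with 1133 at an unadjusted p below 0.05. The effect of siCop1 was larger without Dexa in 45 of the 83, and had the opposite sign in the 2 settings in 30. The count was 52 in a fit of only the 4 groups, 43 without siCop1 with Dexa replicate 2 and 54 without siCop1 replicate 3. Errfi1, the EGF receptor inhibitor, shows the first kind. Without Dexa it was at 31.2, 26.9 and 26.7 CPM with siCTRL and 51.1, 49.7 and 50.4 CPM with siCop1, with no overlap. With Dexa it was at 244, 234 and 235 CPM with siCTRL and 248, 245 and 242 CPM with siCop1, and the groups overlapped (log2 fold change 0.04, interaction -0.79, adjusted p = 7.53e-10 in edgeR's test). Ccbe1 (1.07), Klf5 (0.73) and Glul (0.58) also rose without Dexa and stood at 0.07, -0.04 and -0.13 with it. Fst was 0.28 without Dexa and -0.39 with it. Dkk2 shows the opposite. Its level with siCTRL was 16.2, 14.4 and 15.3 CPM with Dexa, below the values without Dexa given above, and with siCop1 it was 85.3, 76.3 and 72.8 CPM, so the log2 fold change was 1.24 without Dexa and 2.35 with it (interaction 1.11, adjusted p = 1.93e-09). Nptx1, a neuronal pentraxin, went from 1.401 to 2.19, and Grem1 from 0.67 to 1.29. The fall of Ace, angiotensin-converting enzyme, was -1.69 without Dexa and -0.73 with it. Tll1, a tolloid protease, was -0.42 without Dexa and 0.37 with it.

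**Figure D5:**
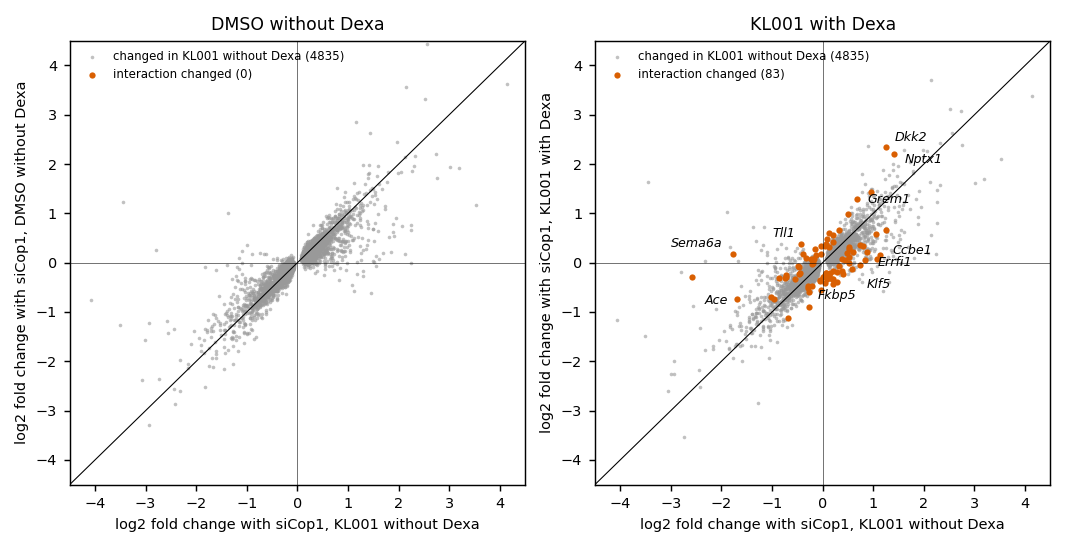
Log2 fold change with siCop1 in KL001 without Dexa on the x axis against that in DMSO without Dexa (left) and in KL001 with Dexa (right) on the y axis, for the 4835 genes changed in KL001 without Dexa, in grey. The diagonal marks equal effects, and orange points are genes whose interaction passed the threshold, 0 on the left and 83 on the right. Dkk2 and Nptx1 lie above the diagonal, and Errfi1 and Ccbe1 lie near 0 with Dexa.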

How the data were processed

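RNA from 24 libraries was profiled with a stranded mRNA kit and single reads, per the labels' protocols. The authors deposited raw counts per gene symbol (47480 genes, 28837 with a count). The submitters' processing notes name STAR 2.4.5a, featureCounts of Subread 1.4.6-p3, Picard 1.126, bcl2fastq 1.8.4 and DESeq2 without their roles. The strand setting of the counting is not given in the sources, so antisense or overlapping genes and close paralogs are uncertain. A deposited normalized table was not used.

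Groups follow the labels. Genes were kept with filterByExpr (minimum count 10, minimum total 15), scaled by TMM, and fitted to the 24 libraries with a mean for each group and without covariates, using edgeR 4.0.16 (robust quasi-likelihood, Benjamini-Hochberg adjustment, two-sided, R 4.3.3), leaving 16 residual degrees of freedom and a common biological coefficient of variation of 3.71%. Interactions used the same fit. The script was tested on simulated data. CPM use the TMM totals, and at 24244232 counts or more per library values well under 1 CPM rest on few reads. No batch is labelled, no libraries were identical, and replicates differed beyond sampling noise (chi-square per degree of freedom 2.68 to 9.27).

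Named genes are Cop1, up to 15 genes of each direction with the largest change (mean of at least 1 CPM, groups not overlapping), up to 8 at 50 CPM or more, up to 5 of each sign per interaction, and members of 40 gene lists, of which those on marker genes are given as sums. Outside the lists, unnamed gene models (Gm or Rik symbols) and pseudogenes marked -ps were skipped. The members and lists were chosen with earlier results of these data known. Which list members are printed was chosen after their values were seen. Lists were described by counts and medians without a set test. Alternatives were leaving out each library, RLE scaling, DESeq2 1.42.0, no filter, a fit restricted to the groups compared, a block for the replicate number, and the last 2 together. Promoter windows and motif matches came from the RefSeq table for GRCm38.p6. Some list members are not reported here by name.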

Additional observations from a re-analysis of the deposited data

Results flagged for a closer look

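The effect of Cop1 knockdown in KL001 differed between cells without and with Dexa for 83 genes, by the interaction term of edgeR's quasi-likelihood test, Benjamini-Hochberg adjusted. Terms are log2 differences, the effect with Dexa minus the effect without it. Among the named genes and list members reported here, the terms below 0 were Ccbe1 at -1.0, Errfi1 at -0.79, Klf5 at -0.78, Glul at -0.71, Fst at -0.67, Stc2 at -0.65, Fkbp5 at -0.64, Il34 at -0.54, Dusp5 at -0.52, Adarb1 at -0.48, Egr1 at -0.32, Itga6 at -0.31 and Ctgf at -0.26. The terms above 0 were Sema6a at 1.95, Dkk2 at 1.11, Ace at 0.96, Nptx1 and Tll1 at 0.79, Grem1 at 0.62, Etv5 and Cxcl1 at 0.44, Ptx3 at 0.33, Inhbb at 0.28, Rspo2 at 0.23, Mmp19 at 0.22, Sfrp2 and Loxl3 at 0.21 and Emilin1 at 0.17. Errfi1, Glul and Fkbp5 belong to the glucocorticoid response list. Sema6a has a mean under 1 CPM over the 12 libraries, and its value rests on few reads.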

How the results depend on the processing

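In KL001 without Dexa, every gene changed both as reported and under an alternative kept its direction, in each of the 12 alternatives. The count of changed genes was 4781 with RLE scaling, 4638 without the filter, 4278 with DESeq2, 4786 with the replicate block and 3520 with only the 6 libraries fitted. With the replicate block on only those 6 libraries it was 2678 (1297 higher, 1381 lower), against 4835 as reported. Leaving out a library gave 3973 to 4703, with 1731 to 2145 higher and 2242 to 2558 lower. The replicate numbers did not pair the samples of the 2 groups compared (same-numbered deviations correlated at -0.44 to 0.06, 1 of 3 best with its own number). Over all pairs of groups, same-numbered correlations ran from -0.65 to 0.61, with 27 of 84 over 0.1. Their median was 0.018, against 0.0095 for libraries of other numbers. The siCop1 by KL001 interaction, at 0 genes, gave 61 without the filter, 15 with DESeq2 and 0 to 6 when a library was left out (6 without siCTRL replicate 2, 1 without siCTRL replicate 3), and 0 in the other fits, the block included. The siCop1 by Dexa interaction, at 83, gave 156 without the filter, 52 with only the groups compared, 45 with the block on those groups, 75 with the block on all libraries and 43 to 94 when a library was left out. Of the values of genes named by size of change, 670 kept their call, 2 lost it, both of Des, and 0 reversed. Of the values of list members, 7276 kept their call or lack of one, 489 lost it, 146 gained it, 218 changed sign in genes not called as reported and 0 reversed a call. List counts that moved by over 1.5 times with only the groups compared were those of lower genes in the Cop1 ligase (4 to 2), clock (4 to 2, as without the filter), mitosis (7 to 3), hypoxia (10 to 6), YAP (6 to 3), retinoic acid (5 to 3), sterol (5 to 3) and cytokine (5 to 3) lists and of higher genes in the insulin-like growth factor (5 to 3) and p53 (4 to 1) lists. Leaving out a library moved counts of higher genes from 2 to 0 in the cyclin D list (siCop1 replicate 1 or 3, or siCTRL replicate 1), from 4 to 1 in the p53 list (siCop1 replicate 2), from 5 to 3 in the insulin-like growth factor list (siCop1 replicate 1 or siCTRL replicate 2), from 5 to 3 in the glucocorticoid list (siCop1 replicate 3 or siCTRL replicate 1) and from 5 to 3 in the interferon list (siCop1 replicate 2). It moved counts of lower genes from 5 to 3 in the retinoic acid list (siCop1 replicate 2 or siCTRL replicate 2) and in the cytokine list (siCop1 replicate 1 or 2). The cause of these shifts was not tested. Counting error limits genes under 1 CPM, 153 of the 313 changed at least 2-fold.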
